A study of Rattus norvegicus with 192 samples.

Results

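Zucker diabetic fatty (ZDF) rats, an obese strain in which a leptin receptor mutation leads to type 2 diabetes, and their lean controls were fed a casein or a whole egg diet, and mRNA was sequenced from adipose tissue, liver, kidney and prefrontal cortex (PFC). The genes described here are those enriched in adipose tissue. They were chosen from the casein-fed ZDF rats alone, as genes whose median level in adipose tissue was at least 20 CPM (a gene's count divided by the total of its library, in the usual scaling) and at least 10 times the median in each of the liver, kidney and PFC. Of the 11291 genes in the tables of ZDF rats, 285 met both thresholds, and the 150 with the highest adipose median were kept, out of 12563 identifiers in all mRNA tables of the series.

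The rats were male, arrived at 6 weeks of age and were fed for 8 weeks. The ZDF rats were fa/fa and the lean controls fa/+, so the controls also carried 1 copy of the leptin receptor allele. Both diets held 20% protein, from casein or from dried egg powder, with corn oil added to the casein diet to match its fat. Each group of genotype and diet held 6 rats, which gave 24 adipose libraries with totals from 30819 to 4116202 counts (median 1890562). Each library came from a separate rat, and the depot of the adipose tissue is not given in the sources used here. Genotype was taken from the column names of the count tables, since the strain in the sample labels differs from them for 12 of the 24 rats. In 4 adipose libraries the enriched genes took a low share of the counts, those of lean whole egg rats 6 and 13, ZDF casein rat 5 and ZDF whole egg rat 11, and the fitted differences of named genes and the counts that rest on them are also given without these libraries.

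White adipose tissue stores triglyceride in adipocytes, which take up fatty acids from circulating lipoproteins and release them by lipolysis. Adipocytes also secrete hormones such as adiponectin, which acts on liver and muscle to increase insulin sensitivity. The tissue further holds fibroblasts that lay down collagen, blood vessels and resident macrophages, and in obese rodents macrophages are known to accumulate in it. A gene enriched in adipose tissue may therefore belong to any of these cells, and in whole tissue fewer cells of a type and less RNA per cell cannot be told apart.

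The 150 genes had adipose medians from 70.5 to 17619.7 CPM in casein-fed ZDF rats, with a median of 228 CPM. These values chose the genes and are given as a description. For 142 of them the ratio of the adipose median to the highest other tissue could be formed, and it ran from 10.1 to 247 with a median of 21.9. The other 8 had a median of 0 or no entry in all 3 other tissues. The next highest tissue was the PFC for 58 genes, the liver for 42 and the kidney for 42. At the edges of the rule, the last gene kept had 70.5 CPM and the next in order 70.0 CPM, and the ratios just inside and just outside the threshold were 10.1 and 9.99, the second that of RGD1565355.

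The tables name genes by Ensembl identifier, and 15 of the 150 are described here by a symbol, taken from the study's own table of genes changed by diet in some tissue. The symbols are thus a selection made on these rats, and the other 135 genes are counted but described without names. Among the 15, Ca3, which encodes the cytosolic carbonic anhydrase 3 abundant in adipocytes and muscle, had the highest level with 17619.7 CPM in adipose tissue, against 609 CPM in liver, 166 CPM in PFC and 123 CPM in kidney. Lpl, the lipoprotein lipase that frees fatty acids from circulating triglyceride, had 6052 CPM in adipose tissue and 151 CPM in kidney. Fabp4, the fatty acid carrier of adipocytes and macrophages, had 3727 CPM and at most 54.8 CPM elsewhere. The adipokines Adipoq (adiponectin) and Retn (resistin, an adipocyte hormone in rodents) had 1636 and 274 CPM, against at most 33.3 and 12.1 CPM in the other tissues. The named genes also held matrix genes (Col3a1, Fbn1, Lox, Timp1), genes of macrophages and antigen presentation (Lyz2, RT1-Ba), and S100a10, Gask1b, Rassf4 and Glipr1.

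**Figure D1:**
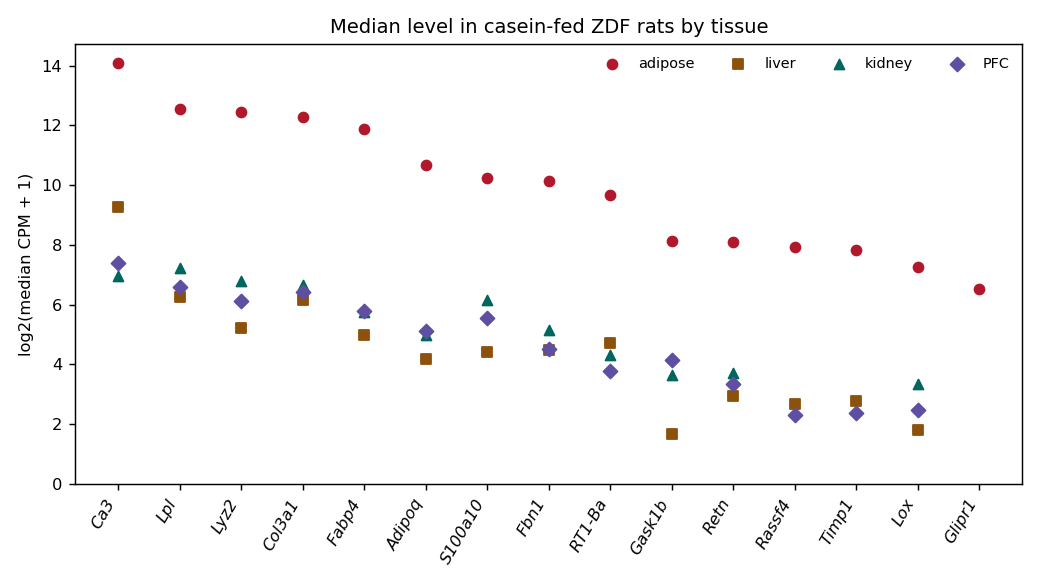
Median level of the 15 enriched genes described by a symbol in casein-fed ZDF rats, as log2(median CPM + 1), with a marker for each tissue (6 libraries each). Adipose tissue stood highest for every gene, as the rule required, from Ca3 at 17619.7 CPM to Glipr1 at 90.5 CPM, and a missing marker means that the gene is not in that tissue's table.

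Because the rule used only casein-fed ZDF rats, the same thresholds could be read in the 3 other groups. In ZDF whole egg rats 113 of the 150 genes met both thresholds again, as did 225 of all 11291 genes. In lean rats, whose comparison left out the liver, 110 of the 150 met both on casein and 104 on whole egg, beside 291 and 253 of 11946 genes. With rats 6 and 13 left out, the count on whole egg was 115. An adipose median of at least 20 CPM was seen for 145, 140 and 139 of the 150 genes in ZDF whole egg, lean casein and lean whole egg rats, so most of the others fell short of the ratio.

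Promoter sequences from RefSeq (build GRCr8, 250 bases before to 50 after the start of transcription) matched 8 of the 15 symbols. They are shown for 2 adipokines, Adipoq and Retn, and for Rassf4 and Lyz2. Both of the latter had a higher median in ZDF than in lean adipose tissue, but only Rassf4 was called, on casein. Capitals mark matches, on either strand, to 6 short motifs. These were CCAAT for the CCAAT box, TATAAA for the TATA box, TTGCNNAA for C/EBP factors, GAGGAA for PU.1, TGANTCA for AP-1 and GGGCGG for the GC box bound by Sp1. The Adipoq window lies on the minus strand at chr11:91240120-91240419, that of Retn on the plus strand at chr12:6508524-6508823, that of Rassf4 on the minus strand at chr4:151604834-151605133 and that of Lyz2 on the minus strand at chr7:54797962-54798261.
Adipoq: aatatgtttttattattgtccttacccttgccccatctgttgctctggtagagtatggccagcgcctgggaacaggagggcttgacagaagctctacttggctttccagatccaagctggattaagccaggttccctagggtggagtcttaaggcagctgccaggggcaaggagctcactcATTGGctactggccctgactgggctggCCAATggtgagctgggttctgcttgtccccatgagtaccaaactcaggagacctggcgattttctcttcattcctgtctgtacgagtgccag
Retn: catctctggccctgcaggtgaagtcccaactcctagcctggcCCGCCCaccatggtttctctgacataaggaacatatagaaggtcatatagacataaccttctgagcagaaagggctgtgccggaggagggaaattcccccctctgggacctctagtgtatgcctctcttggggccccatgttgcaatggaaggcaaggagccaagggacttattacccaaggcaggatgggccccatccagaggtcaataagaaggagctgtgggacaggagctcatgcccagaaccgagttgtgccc
Rassf4: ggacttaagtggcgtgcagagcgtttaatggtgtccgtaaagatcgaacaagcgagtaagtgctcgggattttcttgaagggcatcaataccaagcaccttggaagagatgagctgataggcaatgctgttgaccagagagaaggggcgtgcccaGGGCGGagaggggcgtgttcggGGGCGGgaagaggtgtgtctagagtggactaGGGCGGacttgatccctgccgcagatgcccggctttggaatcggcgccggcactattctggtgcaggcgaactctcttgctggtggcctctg
Lyz2: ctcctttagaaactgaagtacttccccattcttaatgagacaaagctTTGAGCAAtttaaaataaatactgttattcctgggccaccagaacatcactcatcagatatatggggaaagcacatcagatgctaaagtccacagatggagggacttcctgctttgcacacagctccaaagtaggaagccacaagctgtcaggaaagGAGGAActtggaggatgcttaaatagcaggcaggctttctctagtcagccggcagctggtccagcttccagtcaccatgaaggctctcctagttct
Adipoq held 2 matches to CCAAT, 69 and 42 bases before the start, and Gask1b also held 2, while 37.7% of the 27457 promoters in the table held at least 1. Rassf4 held 3 matches to GGGCGG, and Retn and Timp1 held 1 each, against 34.9% of all promoters. Lyz2 held 1 match to GAGGAA, found in 27.5% of promoters, and 1 to TTGCNNAA, found in 10.5%. None of the 8 windows held TATAAA or TGANTCA, which 14.3% and 7.33% of all promoters held. These matches describe letters in a window and were not tied to any measured binding.

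The enriched genes took a similar share of the counts in most adipose libraries and a lower one in 4. In 20 of the 24 libraries their share lay between 9.42% and 15.9%. In lean whole egg rats 6 and 13 it was 0.820% (95% Clopper-Pearson interval 0.797 to 0.844) and 0.502% (0.493 to 0.510), in ZDF casein rat 5 it was 3.82% (3.80 to 3.85) and in ZDF whole egg rat 11 it was 2.67% (2.50 to 2.86). These intervals cover counting error only. In liver, kidney and PFC the same genes took between 0.122% and 1.00% of the counts. The highest of these was a PFC library with 67861 counts and the next a kidney library with 0.660%, so the adipose library of rat 13 stood within the range of other tissues and that of rat 6 lay below only the highest of them.

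**Figure D2:**
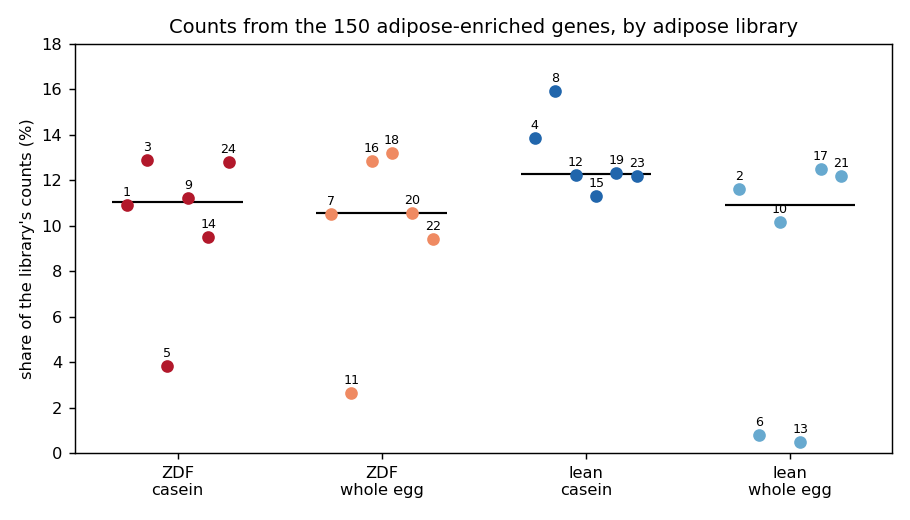
Share of each adipose library's counts (%) that came from the 150 enriched genes, by genotype and diet; points are libraries numbered by rat and bars are group medians (n = 6). Rats 6 and 13 (0.820% and 0.502%), rat 11 (2.67%) and rat 5 (3.82%) lie below the other 20 libraries, which hold 9.42% to 15.9%.

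In rats 6, 11 and 13 most of the list was low in CPM, not only a few abundant genes, and in rat 5 a smaller part was. Of the 149 enriched genes measured in both genotypes, 133 in rat 13 and 126 in rat 6 lay under 0.25 times their own median over the 24 libraries, as did 95 in rat 11 and 42 in rat 5, against at most 13 in any other library. In rat 13, 9 of the genes were at or above the lowest of the other 4 lean whole egg rats, Rassf4 among them, and in rat 6 there were also 9, none with a symbol. Adipoq, the defining adipocyte marker here, had 111 CPM in rat 6 and 48.6 CPM in rat 13, against 3017 to 6801 CPM in the other 10 lean rats. Marker lists could be read only for genes with a symbol in the study's own table, and these list genes are called measured here. The summed level of the 5 measured genes (of 30) of the list of epididymal and other epithelial markers was high in the same 2 libraries. It was 3409.7 CPM in rat 6 and 5283 CPM in rat 13, against 19.9 to 125 CPM in the other lean rats. Among them Cd52, a surface glycoprotein of leukocytes and epididymal epithelium, had 2577 and 1509 CPM. Prom1, Reep6 and Cdh1 were also above all other lean rats in both libraries. Sult1e1 was not, with 24.2 CPM in rat 6 and 2.66 CPM in rat 13, against 2.04 to 32.8 CPM in the other lean rats. In ZDF rats the same list, with 6 measured genes, reached 635 CPM in casein rat 14, 552 CPM in whole egg rat 11 and 863 CPM in whole egg rat 22, and at most 48.1 CPM in the other 9. The sum in rat 11 rests on few counts, with Cd52 at 0 CPM and Prom1 at 64.9 CPM. Rat 11 also had only 30819 counts, so that a gene with no count there may still have had up to 97.3 CPM. In rat 5 the 10 most abundant genes took 68.8% of the counts. The fitted models rescale each library by a TMM factor, 0.394 for rat 5 in the model of all 24 libraries, and CPM does not. Shares of counts, and levels and overlaps of groups given in CPM, thus place rat 5 lower than the fits do. Its low share alone does not show that the enriched genes were low relative to its other genes. The part of these features in the results below was not tested.

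**Figure D3:**
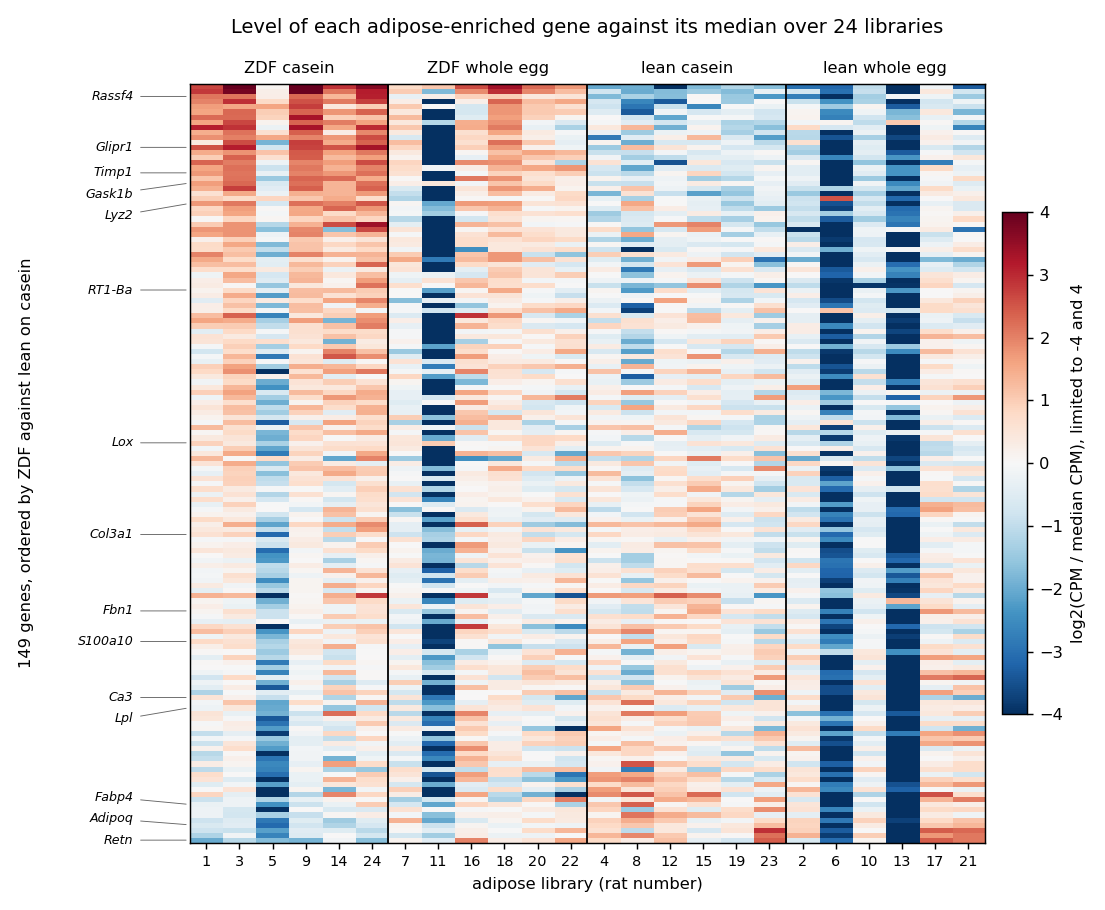
Level of 149 enriched genes (rows) in the 24 adipose libraries (columns, numbered by rat), as log2 of CPM over the gene's own median, with rows ordered by the fitted difference between ZDF and lean rats on casein and symbols at the left. The columns of rats 6, 11 and 13 are low in most rows, and the upper rows, from Rassf4 to Lyz2, are red in the casein-fed ZDF rats other than rat 5.

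The first comparison asked how the enriched genes differed between ZDF and lean rats on casein. Of 149 genes, 7 were higher in ZDF rats and none was lower at a false discovery rate (FDR) of 5% (edgeR quasi-likelihood test, adjusted over 7395 genes), where 0.23% of all genes tested were called, 0.203% higher and 0.027% lower. The casein-fed ZDF libraries also chose these genes, so the direction is not free of the choice and the count is a description. The log2 fold changes (L2FCs) of the 7 genes ran from 2.41 to 5.10, with adjusted p from 0.000715 to 0.0383. Their group medians lay between 85.1 and 1743 CPM in ZDF casein rats and between 8.52 and 94.8 CPM in lean casein rats. Over all 149 genes the median L2FC was 0.19, against -0.03 over all genes, and 84 of 149 were above 0 (47.9% of all genes) and 65 below (52.1%). At an unadjusted p under 0.05, 27 were higher and 7 lower, against 3.31% and 4.19% of all genes, and without rats 6 and 13 these were 34 and 11, against 4.71% and 6.13%.

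Rassf4, which encodes a Ras association domain protein, was the only called gene with a symbol. Its level in ZDF casein rats was 243, 241, 66.4, 268, 138 and 468 CPM in rats 1, 3, 5, 9, 14 and 24. In lean casein rats it was 16.2, 22.9, 16.8, 57.1, 19.4 and 11.1 CPM in rats 4, 8, 12, 15, 19 and 23. The groups did not overlap, although rat 5 and lean rat 15 came close in CPM. Their TMM factors in the model were 0.394 and 1.22, and CPM is not rescaled by them. The L2FC was 3.25 ± 0.55 (SE; adjusted p = 0.00365), and the call held in every setting that left out 1 rat. The called gene with the largest fold change, ENSRNOG00000023068, had 33.2 to 573 CPM in ZDF casein rats and 0.885 to 13.3 CPM in lean casein rats, again without overlap. Its L2FC was 5.10 ± 0.76 (SE; adjusted p = 0.000715).

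Further named genes were higher in ZDF casein rats without passing the threshold. Glipr1 had medians of 90.5 and 12.8 CPM, with an L2FC of 2.29 ± 0.60 (SE; p = 0.000629, adjusted p = 0.116). Timp1, an inhibitor of matrix metalloproteinases, had medians of 226 and 43.1 CPM and an L2FC of 1.89 ± 0.49 (SE; p = 0.000585, adjusted p = 0.116). Gask1b, a Golgi-associated kinase family member, had medians of 279 and 61.7 CPM and an L2FC of 1.88 ± 0.46 (SE; p = 0.000299, adjusted p = 0.0920). Lyz2, the lysozyme of macrophages, ranged from 851 to 7499.8 CPM with a median of 5617 CPM in ZDF casein rats, and from 476 to 3933 CPM with a median of 1184 CPM in lean casein rats. Its L2FC was 1.45 ± 0.65 (SE; p = 0.0345, adjusted p = 0.601). In these 4 genes rat 5 was the lowest of the ZDF casein group, and without rats 5, 6, 11 and 13 Glipr1, Timp1 and Gask1b passed the threshold, with adjusted p of 0.00377, 0.000395 and 0.000395, while Lyz2 did not (adjusted p = 0.0866).

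Both adipokines lay the other way. Adipoq had 1764, 1959.5, 316, 1579, 1167 and 1693 CPM in ZDF casein rats 1, 3, 5, 9, 14 and 24. In lean casein rats 4, 8, 12, 15, 19 and 23 it had 4708, 5720.2, 3634, 3017, 3624 and 6277 CPM. All lean values exceeded all ZDF values, with means of 1413 ± 599 CPM and 4497 ± 1296 CPM (SD, n = 6). The L2FC was -1.85 ± 0.69 (SE; p = 0.0118, adjusted p = 0.419), and without rats 6 and 13, whose spread enters the shared estimate, the adjusted p was 0.0131. Retn had a median of 274 CPM in ZDF casein rats (222 to 819.8) and of 1303 CPM in lean casein rats (531 to 4834), with overlap through rat 14. Its L2FC was -2.22 ± 0.82 (SE; p = 0.0113, adjusted p = 0.409), and without rats 5, 6, 11 and 13 the adjusted p was 0.0403. Counted over all 149 genes, the 2 groups did not overlap for 13 higher and 3 lower genes, against 0.5% and 0.297% of all genes. Leaving out 1 rat gave 16 to 33 such genes in all, and without rat 5 there were 30 higher and 3 lower, against 2.12% and 0.297%. Group medians were at least 2 times apart for 43 higher and 12 lower genes, against 7.76% and 3.86% of the 5126 genes with a median of at least 20 CPM in either group.

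The number of calls depended on the libraries in the model. Without rats 6 and 13 it was 21 (18 higher, 3 lower), without rats 5, 6, 11 and 13 it was 28 (23 higher, 5 lower), and leaving out 1 rat at a time gave 4 to 15, with 12, 11 and 15 without rats 6, 11 and 13 and 4 without rat 9 or rat 15. With the strain of the sample labels in place of the genotype of the tables no gene was called. The share of all genes called in these settings is not given here. At an unadjusted p under 0.05 in edgeR, the shares of all 7395 genes rose too. They were 3.31% higher and 4.19% lower with all rats, 4.71% and 6.13% without rats 6 and 13, and 4.71% and 5.77% without rats 5, 6, 11 and 13. The rise in calls was thus not shown to be particular to the enriched genes.

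On whole egg the question was whether ZDF and lean rats differed in the same genes among libraries that the rule had not used. A choice for high levels in ZDF adipose tissue may still favour genes higher in ZDF rats, so the direction is again not free of it. Of 149 genes 1 was higher in ZDF rats and none was lower, against 0.0406% and 0.0% of all genes. It was ENSRNOG00000023068, which is named because it was the only call, after its values were seen. It had 52.1, 64.9, 189, 316, 146 and 101 CPM in ZDF whole egg rats 7, 11, 16, 18, 20 and 22. In lean whole egg rats 2, 6, 10, 13, 17 and 21 it had 3.84, 3.46, 15.2, 0.380, 28.1 and 3.07 CPM. The groups did not overlap, and the L2FC was 3.90 ± 0.71 (SE; adjusted p = 0.0250). Without rats 6 and 13 the L2FC was 3.49 and the adjusted p 0.0599, and the call was also lost without each of rats 2, 6, 10, 16, 18 and 21, with adjusted p from 0.0515 to 0.0920.

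The other 6 genes called on casein were also above 0 on whole egg, and over all 7 the L2FCs ran from 0.65 to 3.90. Rassf4 had a median of 76.1 CPM (44.4 to 109) in ZDF whole egg rats and of 20.8 CPM (0 to 52.4) in lean whole egg rats, and an L2FC of 1.58 ± 0.52 (SE; p = 0.00490, adjusted p = 0.290). Glipr1 (L2FC 2.02 ± 0.61 SE, p = 0.00257), Lyz2 (1.94 ± 0.66, p = 0.00661), Gask1b (1.22 ± 0.46, p = 0.0122) and Timp1 (1.17 ± 0.48, p = 0.0224) lay in the same direction, with adjusted p from 0.238 to 0.420. The L2FCs of Rassf4, Glipr1, Lyz2, Gask1b and Timp1 without rats 6 and 13 were 1.62, 1.56, 1.44, 0.75 and 0.72, with adjusted p from 0.515 to 0.997. Lox, the enzyme that cross-links collagen, had 108 to 227 CPM in ZDF whole egg rats and 1.14 to 90.4 CPM in lean whole egg rats without overlap (L2FC 1.18 ± 0.50 SE, p = 0.0233, adjusted p = 0.424, and 0.87 without rats 6 and 13). Groups did not overlap for 3 genes, Gask1b, Lox and ENSRNOG00000023068, all higher, against 0.189% of all genes (0.0811% were lower). Leaving out rats 6 and 13, the same 3 genes were higher and 3 were lower, Adipoq, ENSRNOG00000010529 and ENSRNOG00000033564, against 0.419% and 0.838% of all genes, and without rat 11 there were 13 higher and none lower (0.676% and 0.162%). The median L2FC of the 149 genes was 0.54, against -0.17 over all genes, and 122 of 149 were above 0 (37.8% of all genes) and 27 below (62.2%). At an unadjusted p under 0.05, 25 were higher and none lower, against 1.96% and 7.36% of all genes, and without rats 6 and 13 these were 13 and 8, against 1.91% and 2.72%. Without rats 6 and 13 that median was 0.068, against -0.06 over all genes, with 84 above 0 (45.3% of all genes), and without rats 5, 6, 11 and 13 it was 0.28, with 103 above 0 (51.1%).

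Adipoq on whole egg had 2879, 1493, 2931, 2251, 2511 and 2353 CPM in ZDF rats, and 4906, 111, 3362, 48.6, 5651 and 6801 CPM in lean rats 2, 6, 10, 13, 17 and 21. The 4 lean rats other than 6 and 13 lay above all 6 ZDF rats, and rats 6 and 13 far below them.

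**Figure D4:**
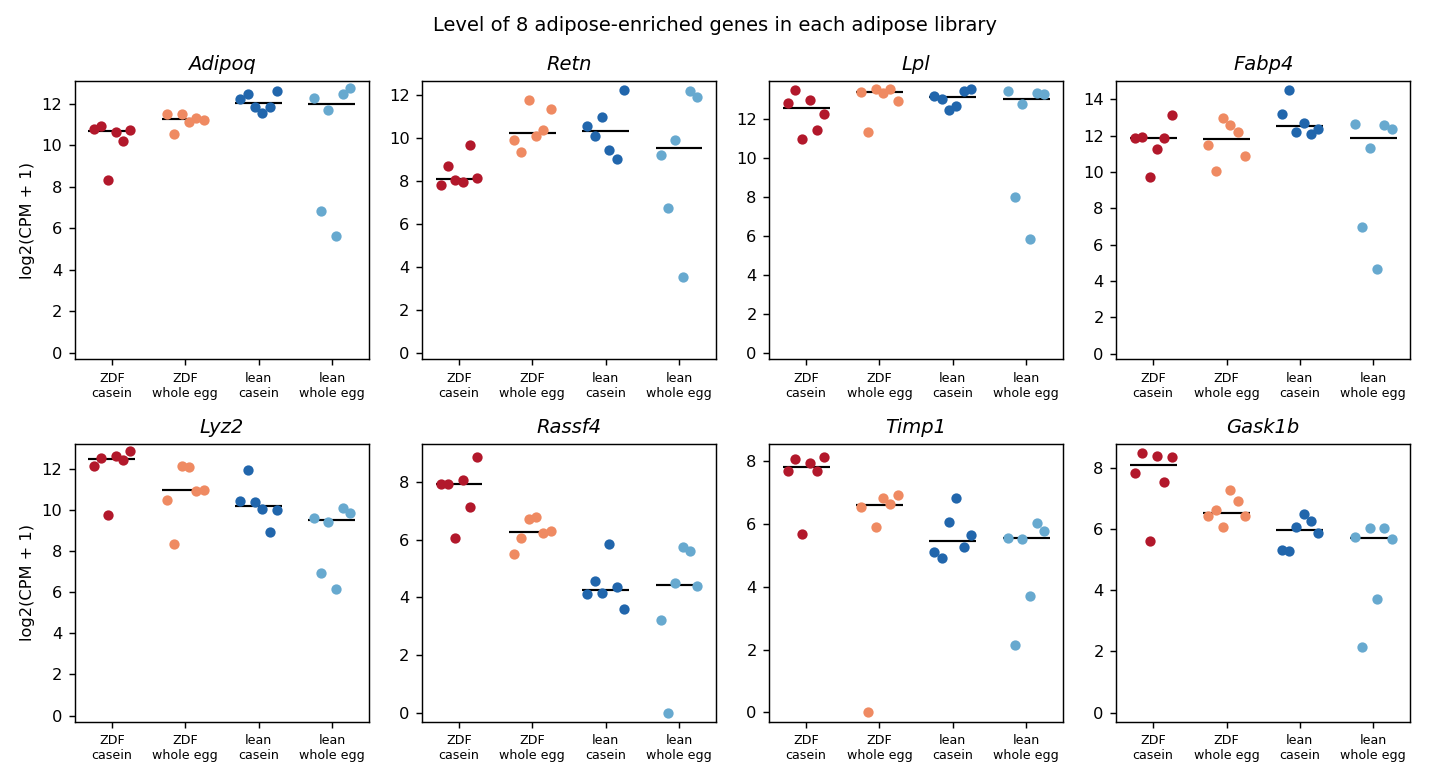
Level of 8 enriched genes in each adipose library as log2(CPM + 1), by genotype and diet; points are libraries and bars are medians of the plotted values (n = 6). Adipoq and Retn have their lowest medians in casein-fed ZDF rats (1636 and 274 CPM), and Lyz2, Rassf4, Timp1 and Gask1b have their highest there (5617, 242, 226 and 279 CPM).

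The main question of the study was what whole egg did within a genotype. In ZDF adipose tissue none of the 150 enriched genes passed the threshold (edgeR), against 0.0257% of all 7772 genes tested, and 28 of the 150 had an unadjusted p under 0.05. DESeq2 called 3 of them, Retn and Rassf4 among them, with its own size factors and with TMM factors, and limma-voom with quality weights called 5, Retn, Rassf4 and Glipr1 among them. Both tools also called more of all genes than edgeR did, so the edgeR share is not their background. Their counts over all genes are in the last section. Of the 28 genes, 23 were lower on whole egg and 5 higher, against 3.4% and 3.0% of all genes. Without the shallow rat 11 there were 25 lower and 15 higher, against 3.67% and 5.34%, and without rats 5 and 11 there were 29 and 15, against 3.94% and 4.79%. The casein libraries in this comparison also chose the genes, which favours lower values on whole egg, so the balance of directions is a description. The median L2FC was -0.37, against -0.04 over all genes, and it was -0.21 without rat 11 and -0.26 without rats 5 and 11. Of the 150 genes, 108 were below 0 (52.7% of all genes) and 42 above (47.3%), and without rat 11 these were 89 and 61, where 50.4% of all genes were above 0.

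Retn had the largest positive L2FC of the named genes, without passing the threshold in edgeR. Its level was 222, 411, 268, 248, 819.8 and 281 CPM on casein in rats 1, 3, 5, 9, 14 and 24, and 984, 649, 3514, 1099.7, 1318 and 2636 CPM on whole egg in rats 7, 11, 16, 18, 20 and 22. The ranges overlapped only because casein rat 14 exceeded the shallow rat 11. The L2FC was 2.04 ± 0.52 (SE; p = 0.000754, adjusted p = 0.346 in edgeR and 0.0214 in DESeq2), and without rats 5 and 11 it was 2.42, with an adjusted p of 0.0535 in edgeR. Retn carries a symbol here because the study listed it among genes changed by diet, from these same libraries, so its difference is a description. Adipoq had a median of 2432 CPM on whole egg (1493 to 2931) and of 1636 CPM on casein (316 to 1959.5), with an L2FC of 0.79 ± 0.42 (SE; p = 0.0726, adjusted p = 0.804). Without rats 5 and 11 its L2FC was 0.83, and the diet groups did not overlap for either adipokine.

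Rassf4, Glipr1, Gask1b and Timp1 had lower medians on whole egg, again without passing the threshold in edgeR. Their symbols also come from the study's table of genes changed by diet in these libraries, and the casein libraries chose the enriched genes, so the direction is not free of the choice and the values are a description. Rassf4 had a median of 242 CPM on casein and of 76.1 CPM on whole egg, with an L2FC of -1.54 ± 0.39 (SE; p = 0.000751, adjusted p = 0.346). Glipr1 had medians of 90.5 and 21.5 CPM and an L2FC of -1.69 ± 0.48 (SE; p = 0.00213, adjusted p = 0.539). Gask1b had medians of 279 and 91.5 CPM and an L2FC of -1.20 ± 0.39 (SE; p = 0.00596, adjusted p = 0.679). Timp1 had medians of 226 and 95.9 CPM and an L2FC of -1.16 ± 0.43 (SE; p = 0.0140, adjusted p = 0.709). Without rats 5 and 11 the L2FCs of Rassf4, Glipr1, Gask1b and Timp1 were -1.55, -1.84, -1.26 and -1.12, with adjusted p from 0.146 to 0.280. In these genes rat 5 was the only casein rat that did not exceed every whole egg rat in CPM, which is not rescaled by the TMM factors. Without rats 5 and 11 these 4 genes and Lyz2 did not overlap between diets. With all rats 1 gene was lower and 1 higher without overlap, against 0.193% and 0.257% of all genes, and without rats 5 and 11 the numbers were 10 and 5, against 1.93% and 0.656%. Without rat 5 alone 10 were lower and 1 higher (1.39% and 0.257%), and without rat 11 alone 1 was lower and 5 higher (0.257% and 0.643%).

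The 7 genes called between genotypes on casein all had negative L2FCs by diet in ZDF rats, from -1.54 to -1.01. Both comparisons share the casein-fed ZDF libraries, so these values stand side by side and are not separate support. The summed level of the macrophage and leukocyte list, with 4 measured genes of 30, was 867 to 7566 CPM (median 5725) on casein and 389 to 4434 CPM (median 2321) on whole egg in ZDF rats. Most of that sum was Lyz2, and none of the 4 genes was called.

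The abundant genes Lpl, Fabp4 and Ca3 showed no detectable difference by diet in ZDF rats. Lpl had a median of 6052 CPM on casein (2024 to 11307) and of 10479 CPM on whole egg (2563 to 12039.7), with an L2FC of 0.61 and a 95% interval from -0.44 to 1.67. Fabp4 had medians of 3727 and 3728 CPM, with an L2FC of 0.16 and an interval from -0.91 to 1.24. Ca3 ranged from 7477 to 24701 CPM on casein and from 2401 to 29532 CPM on whole egg, with an L2FC of -0.13 and an interval from -1.40 to 1.15. Without rats 5 and 11 the L2FCs of Lpl, Fabp4 and Ca3 were 0.78, 0.24 and 0.17. Each interval includes no change and a change of more than 2-fold in at least 1 direction, and that of Ca3 includes it in both.

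**Figure D5:**
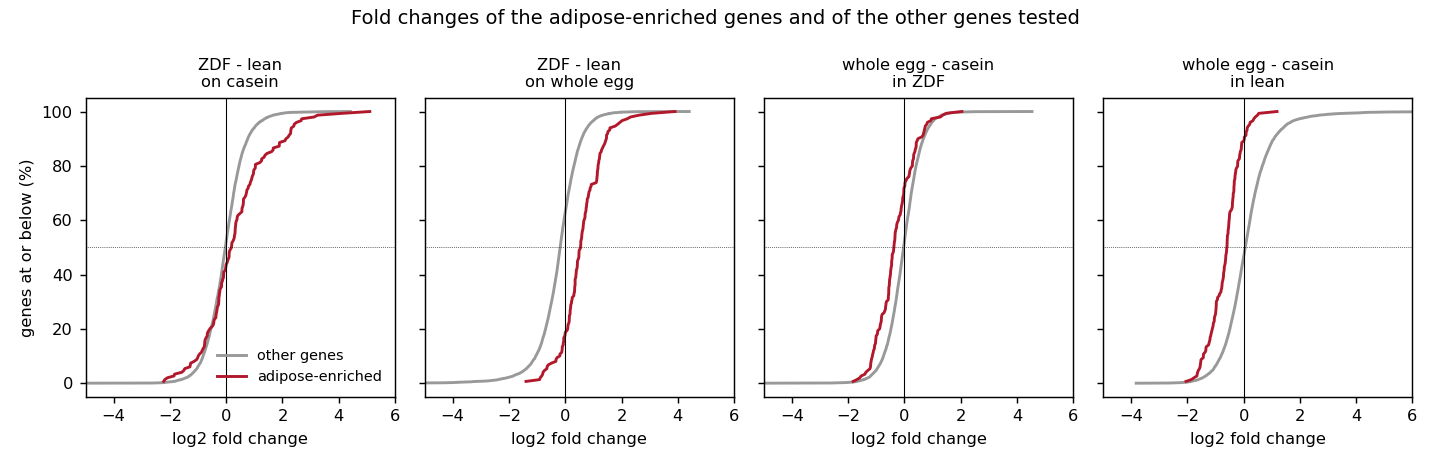
Cumulative share (%) of genes at or below an L2FC, for the enriched genes and for the other genes tested, in 4 comparisons. The enriched genes lie to the right of the others between genotypes (medians 0.19 on casein and 0.54 on whole egg) and to the left between diets (medians -0.37 in ZDF and -0.59 in lean rats), and in lean rats the median was -0.12 without rats 6 and 13.

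In lean adipose tissue, where no library took part in the choice, none of 149 enriched genes passed the threshold, as was the case for all 8788 genes tested (0.0%). At an unadjusted p under 0.05 edgeR listed 669 genes, DESeq2 called 14 genes and limma-voom none, and neither tool called an enriched gene. All 10 enriched genes with an unadjusted p under 0.05 were lower on whole egg, where 2.63% of all genes were lower and 4.98% higher at that level. The median L2FC was -0.59, against 0.05 over all genes, and 132 of 149 were below 0 (47.1% of all genes) and 17 above (52.9%). Without rats 6 and 13 the median was -0.12, 92 were below 0 and 8 had an unadjusted p under 0.05, of which 2 were higher, where 1.15% of all genes were higher and 2.32% lower.

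Lyz2 had a median of 1184 CPM (476 to 3933) on casein and of 726 CPM (70.3 to 1082) on whole egg in lean rats, with an L2FC of -1.51 ± 0.69 (SE; p = 0.0422, adjusted p = 0.635). S100a10, the calcium-binding partner of annexin A2, had medians of 996 and 579.7 CPM and an L2FC of -1.43 ± 0.64 (SE; p = 0.0402, adjusted p = 0.633). Glipr1 had medians of 12.8 and 6.58 CPM and an L2FC of -1.54 ± 0.73 (SE; p = 0.0493, adjusted p = 0.656). In each of the 3 genes rats 6 and 13 held the 2 lowest values of the whole egg group, and without them the L2FCs of Lyz2, S100a10 and Glipr1 were -1.01, -0.94 and -1.04, each with an adjusted p of 0.994. Fabp4, Ca3, Lpl and Adipoq had L2FCs of -1.61 (interval -3.51 to 0.29), -1.25 (-3.29 to 0.80), -0.59 (-2.31 to 1.13) and -0.50 (-2.16 to 1.15). In these 4 genes too rats 6 and 13 were the lowest, with at most 259.6 CPM, and the other 4 whole egg rats had 2584 to 28540.2 CPM, so that the intervals were wide. Leaving out these 2 rats, the L2FCs of Fabp4, Ca3, Lpl and Adipoq were -1.04, -0.67, -0.018 and 0.068. The diet groups overlapped for all 149 genes, where 0.102% of all genes were higher and 0.0228% lower without overlap, and without rats 6 and 13 they did not overlap for 1 gene, higher on whole egg (0.353% of all genes were higher and 0.125% lower). Without rat 23 alone they did not overlap for 2 genes, both lower (0.364% higher and 0.376% lower).

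The matrix genes and RT1-Ba had wide ranges within groups. Col3a1, the chain of type III collagen, had medians of 4958 and 1841 CPM in ZDF rats and 4137 and 1918 CPM in lean rats, on casein and whole egg. Averaged over genotypes its L2FC by diet was -1.02 ± 0.44 (SE; p = 0.0296, adjusted p = 0.602), and -0.76 without rats 6 and 13. Fbn1, which encodes fibrillin-1 of the microfibrils, had medians from 637 to 1258 CPM, and its lean casein values spread from 494 to 2832 CPM. RT1-Ba, an alpha chain of the rat class II major histocompatibility complex, had medians of 810.5 and 429 CPM in ZDF rats and 397 and 369.9 CPM in lean rats, with overlap in every comparison.

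Averaged over both genotypes, none of 149 enriched genes passed the threshold for diet (0.0% of all 7395 genes did), and 32 had an unadjusted p under 0.05, all lower on whole egg, where 3.96% of all genes were lower and 3.98% higher. The casein-fed ZDF libraries of this comparison also chose the genes, which favours lower values on whole egg. The balance of directions is thus a description. There were 21 lower and 4 higher without rats 6 and 13, against 5.14% and 2.77%. Of the 149 genes 131 were below 0 (49.2% of all genes) and 18 above (50.8%). Across all genes tested 587 reached that level, DESeq2 called 17 and limma-voom 9, with 1 enriched gene, Glipr1, called by DESeq2 and none by limma-voom. Glipr1 had an L2FC of -1.62 ± 0.42 (SE; p = 0.000646, adjusted p = 0.281). Gask1b (-0.91 ± 0.32, p = 0.00798), Lyz2 (-1.25 ± 0.46, p = 0.0108) and Timp1 (-0.85 ± 0.34, p = 0.0179) followed, with adjusted p from 0.518 to 0.569. S100a10 (-0.92 ± 0.42, p = 0.0373) and Rassf4 (-0.76 ± 0.36, p = 0.0456) had adjusted p of 0.609 and 0.629. The L2FCs of these 6 genes lay between -1.38 (Glipr1) and -0.62 (Timp1) without rats 6 and 13. The median L2FC of the enriched genes was -0.48, against 0.01 over all genes, and it was -0.30 without rats 6 and 13 and -0.20 without rats 5, 6, 11 and 13.

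Whether the effect of diet differed between genotypes was tested as an interaction. The casein-fed ZDF libraries that chose the genes enter it too, so its direction is not free of the choice. None of the 149 enriched genes was called, against 0.0135% of all genes, and DESeq2 and limma-voom called none of the enriched genes either. At an unadjusted p under 0.05, 2 were above 0 and 3 below, against 1.45% and 5.14% of all genes, and without rats 6 and 13 none was above and 12 below, against 1.23% and 1.43%. The L2FC of the interaction was above 0 for 95 genes (43.8% of all genes) and below for 54 (56.2%), but for 64 and 85 without rats 6 and 13. Rassf4, with an L2FC by diet of -1.54 in ZDF rats and of 0.024 in lean rats, had an interaction of -1.67 ± 0.73 (SE; p = 0.0291, adjusted p = 0.753), and of -1.63 without rats 6 and 13. Retn had an interaction of 2.11 (interval -0.09 to 4.31), and of 1.55 without these rats, so a diet effect specific to ZDF rats was not shown for either gene.

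Other genes of the pathway lists were read from the same models. The lists were matched only through the symbols of the study's table, which cover 548 of 12563 identifiers. List genes without such a symbol were not read, so the counts below do not speak for a whole list. Of the 33 genes in the list of lipid uptake and storage, 4 were measured, and none of these 4 was called by diet or genotype in any comparison. The same held for the 6 or 7 measured genes of the list of fibroblasts and matrix. Of the 16 genes of de novo lipogenesis 5 were measured, none of them an enriched gene, and 1 was called higher on whole egg in ZDF rats and in the interaction. It was Fasn, the fatty acid synthase, named after its values were seen, with an L2FC of 3.32 ± 0.56 (SE; adjusted p = 0.0299) in ZDF rats, where its levels were 33.2 to 139.5 CPM on casein and 227 to 1587 CPM on whole egg. Without each rat in turn its L2FC by diet in ZDF rats was 3.00 to 3.54, but the call held in only 3 of 12 models, those without rat 11, 16 or 18, with adjusted p from 0.00456 to 0.175 over the 12. The Fasn interaction was called in 6 of 24 such models, and not without rats 6 and 13 (adjusted p = 0.232).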

How the data were processed

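RNA was extracted from rat tissue, and libraries of 3′ mRNA tags were prepared and sequenced by the authors. Per the labels and the methods of the study, reads were checked with FastQC and counted per gene with STAR on Rnor 6.0 and Ensembl annotation, genes with few reads were dropped, and the deposited values are raw counts. The versions of these tools were not given in the sources used here. In 8 count tables, 7 columns that match no sample were not used, nor were the study's own columns of fold changes and p-values.

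CPM was the count over the column total. The members and gene lists were chosen with earlier results of these data known. Differences were fitted with edgeR 4.0.16 (R 4.3.3, quasi-likelihood test, TMM factors, Benjamini-Hochberg adjustment over all genes of a model, 2-sided) on 12 ZDF libraries (7772 genes), 12 lean libraries (8788 genes) and all 24 (7395 shared genes). SEs are the log2 fold change (L2FC) over the root of F, and 95% intervals use the normal quantile. These intervals are somewhat narrow for so few rats. For Col3a1 by diet in lean rats the interval was -2.82 to -0.05, where the p of the quasi-likelihood test was 0.0579. Alternatives were RLE factors, a minimum count of 10, DESeq2 1.42.0, limma-voom 3.58.1, leaving out rats (rats 5 and 11, and the counts of groups without overlap, chosen after seeing the data) and the strain of the labels. On simulated counts, edgeR recovered 57.8% of genes changed by 2 on the log2 scale for diet in ZDF rats, 24.2% for diet in lean rats and 52.4% for genotype on casein. Some genes are not reported here by name, in the lists or in the figures, but stay in the counts over all members. Named genes are the 15 members with a symbol, by level, call, list, edge of the rule or lack of overlap. Figures were drawn with matplotlib 3.10.9.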

Additional observations from a re-analysis of the deposited data

Results flagged for a closer look

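In groups of 6 rats, 68 sets of values were checked for a highest or lowest value far from the other 5, and 10 had one. The check uses the gap to the nearest value, so libraries that are low together hide each other. Rats 6 and 13, with shares of 0.820% and 0.502% in the lean whole egg group, were thus not flagged. A rate of about 1 in 20 would hold for independent sets of normal values. These were untransformed CPM and shares from the same 24 libraries, so that rate need not apply here. The share of counts from the enriched genes was low in ZDF casein rat 5 (3.82%) and ZDF whole egg rat 11 (2.67%), the libraries described above, and Timp1 was low in ZDF casein rat 5 (50.0 CPM).

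The other 7 values were high. In lean casein rat 8, Lyz2 was at 3933 CPM and Fabp4 at 23383 CPM. In ZDF casein rat 24, Fabp4 was at 9119 CPM. In lean casein rat 15, Rassf4 was at 57.1 CPM. Retn was at 819.8 CPM in ZDF casein rat 14 and at 4834 CPM in lean casein rat 23. RT1-Ba was at 1248 CPM in ZDF whole egg rat 18. What set these libraries apart was not tested.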

How the results depend on the processing

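No paired analysis was possible because the groups compared hold different rats and share no numbers. RLE factors and the minimum count of 10 kept every count of called enriched genes within 1.5 times its value. DESeq2, DESeq2 with TMM factors and limma-voom called 3, 3 and 5 enriched genes by diet in ZDF rats, 16, 16 and 27 between genotypes on casein and 5, 4 and 3 on whole egg, and 1, 1 and 0 by diet over both genotypes. Over all genes they called 18, 16 and 53 by diet in ZDF rats against 2 in edgeR, 14, 14 and 0 in lean rats against 0, 84, 78 and 193 between genotypes on casein against 17, 46, 31 and 10 on whole egg against 3, and 17, 16 and 9 over both genotypes against 0. Leaving out 1 rat gave 4 to 15 enriched genes between genotypes on casein and 0 to 1 on whole egg. Without rats 6 and 13 these counts were 21 and 0. Without rats 5, 6, 11 and 13, chosen after seeing the data, they were 28 and 3 (shares of all genes called are not given). With the strain of the labels both were 0, the median L2FC was -0.76 between genotypes on whole egg and -0.83 for the interaction, and on whole egg Lyz2 (-1.61), Gask1b (-0.53), Rassf4 (-1.64), Timp1 (-0.71), Glipr1 (-0.57) and ENSRNOG00000023068 (-2.35) had the opposite sign, as did the interaction of Retn (-1.20). By diet in ZDF rats Ca3 ranged from -0.51 to 0.12 and Fabp4 from -0.10 to 0.47 when 1 rat was left out, and Ca3 was at 0.17 without rats 5 and 11. Adipoq by diet in lean rats was at 0.068 without rats 6 and 13. A ratio of 20 in place of 10 left 187 of the 285 genes that met both thresholds, and 82 of the 150. The cause of these differences was not tested. Depth limits rat 11, in whose 30819 counts a gene of up to 97.3 CPM may go undetected.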
